A study of Arabidopsis thaliana and Nicotiana benthamiana and Solanum lycopersicum with 20 samples.

Results

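The genes described here are 7 nuclear genes for small subunits and accessory proteins of photosystem II (PSII) in *Arabidopsis thaliana*, out of 27444 annotated genes that code for proteins in the nucleus: both genes for PsbTn (AT3G21055, called PSBTN1 here, and AT1G51400, called PSBTN2 here), PSBW (AT2G30570), PSBX (AT2G06520), PSBY (AT1G67740), PSB27 (AT1G03600) and PSB28 (AT4G28660). They were chosen by the protein they encode, with earlier results of these data known. The paper had already described strong GLK binding at PsbTn in Arabidopsis. A summit, the base of a ChIP-seq peak with the highest signal, was assigned to a gene when it lay between 1.5 kb upstream of the annotated transcriptional start site and 500 bp inside the gene.

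The data are ChIP-seq summit lists of the GOLDEN2-LIKE transcription factors (TFs) GLK1 and GLK2 from fully expanded leaves, with 2 libraries for each TF. Per the study's methods, the cDNA of GLK1 (AT2G20570) or GLK2 (AT5G44190) was fused to a C-terminal GFP tag, put into the *glk1/glk2* double mutant, in which both native genes are disrupted, and pulled down with an anti-GFP antibody from lines picked for a high level of the fusion protein. The paper describes stable plants that over-express the fusion, and it names over-expression as a limit of its ChIP-seq. The series description speaks of transient expression instead, and the promoter of the transgene and the control behind the peak calls are not given in the sources used here. The GLK1 lists hold 15576 and 13934 summits, the GLK2 lists 22900 and 22143. The median summit was 3.04-fold and 2.76-fold over the control in the GLK1 libraries, against 2.56-fold and 2.51-fold in the GLK2 libraries. Summit lists carry no read counts and the study gives only a range of reads for its Arabidopsis samples, so the depth of each library is unknown, and a longer list cannot be told apart from a deeper library.

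PSII is the membrane complex that splits water at the start of photosynthetic electron transport. Its reaction centre and inner antenna proteins are encoded in the chloroplast, whereas many small subunits, the oxygen-evolving proteins and the light-harvesting antenna are encoded in the nucleus and imported. GLK1 and GLK2 are related GARP-family TFs that promote chloroplast development and activate many nuclear photosynthesis genes. Of the 7 proteins, PsbTn is a small lumenal subunit, PsbW links the core to the light-harvesting supercomplex, and PsbX and PsbY are single-span membrane proteins near cytochrome b559. Psb27 and Psb28 are assembly proteins: Psb27 sits on the lumenal side of immature PSII, and Psb28, studied mainly in cyanobacteria, binds an assembly intermediate that lacks the oxygen-evolving complex.

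All 7 genes had a summit in all 4 libraries, against 23.0% of all genes, but they were not bound with equal strength. In single libraries 29.4% and 27.2% of all genes had one for GLK1, and 41.5% and 40.2% for GLK2. At 6 of them the strongest summit was between 9.33-fold and 44.1-fold over the control in every library and ranked 447 or better in its list, that is in the top 3.21%. PSB28 was the exception, with 2.57-fold to 3.35-fold and ranks from 6273 to 11395. A fold change of at least 9 in all 4 libraries, a limit set after the values were seen, was reached by 6 of the 7 genes and by 0.991% of all genes (272 genes). At least 10-fold in all 4 libraries was reached by 5 of the 7 and by 0.856% of all genes.

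The DNA under the strongest summits of the 6 genes is shown first, because summit positions and shared words are referred to throughout. Each line is 30 bases of the TAIR10 sequence (RefSeq TAIR10.1), on the gene's own strand. The capitals mark matches to the words described further on.
PSBTN1 (chr3:7377187-7377216): cgaaaatcatatttGGATAAGGaaatggat
PSBTN2 (chr1:19052596-19052625): taaattcatattttGGATAAGGaactggat
PSBW (chr2:13020240-13020269): agggcgtcGATTGGtggagtatGGATAgaa
PSBX (chr2:2588380-2588409): ttatcTATCCaatgagccattaggaagctc
PSBY (chr1:25395114-25395143): ttctcattGGATAAGacaactatcaagaag
PSB27 (chr1:898785-898814): AGAATCTaaGATAAGaaGATAAGggacacg
For PSB27 the stretch lies further into the gene than 3 of its 4 summits, since the 30 bases centred on them held no match.

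PSBW (chromosome 2, 13019028 to 13020311, minus strand) gave the highest values of the 7 genes in each library. Its strongest summit was 44.1-fold and 35.0-fold over the control in the GLK1 libraries, against 37.3-fold and 33.5-fold in the GLK2 libraries (39.5 ± 6.47 for GLK1 and 35.4 ± 2.74 for GLK2, SD, n = 2 each). The 4 values overlap between the TFs, and they correspond to 12.7 to 14.6 times the median of their lists. The summits lay 51 and 57 bp inside the gene for GLK1 and 58 and 68 bp for GLK2, in the 5′ UTR and 190 to 207 bp before the first coding base. Their ranks were 64 and 69 for GLK1 and 41 and 46 for GLK2, and −log10 q was between 497 and 698.

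The PsbTn genes followed. At PSBTN1 (chromosome 3, 7376432 to 7377226, minus strand) the strongest summit was 32.3-fold and 29.0-fold in the GLK1 libraries, against 29.6-fold and 27.9-fold in the GLK2 libraries (30.6 ± 2.29 for GLK1 and 28.8 ± 1.22 for GLK2, SD, n = 2 each). At PSBTN2 (chromosome 1, 19052023 to 19052582, minus strand) it was 34.3-fold and 26.1-fold for GLK1, against 24.8-fold and 27.2-fold for GLK2 (30.2 ± 5.78 for GLK1 and 26.0 ± 1.71 for GLK2). For both genes the values of the TFs overlap, and the genes overlap with each other: PSBTN2 was higher than PSBTN1 in GLK1 replicate 1 and lower in the other 3 libraries. All ranks of the pair were between 63 and 100.

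PSBX and PSBY formed the next level. PSBX (chromosome 2, 2587729 to 2588448, minus strand) had 20.6-fold and 15.7-fold for GLK1, against 16.0-fold and 15.3-fold for GLK2 (18.1 ± 3.46 for GLK1 and 15.6 ± 0.512 for GLK2). PSBY (chromosome 1, 25394031 to 25395249, minus strand) had 18.9-fold and 18.0-fold for GLK1, against 17.7-fold and 14.3-fold for GLK2 (18.4 ± 0.591 for GLK1 and 16.0 ± 2.42 for GLK2). Both GLK1 values of PSBY were above both GLK2 values, whereas the values of PSBX overlap between the TFs. By fold change the genes could not be ordered against each other, because PSBX was the higher of them in replicate 1 of GLK1 and replicate 2 of GLK2 and PSBY in the other libraries. By −log10 q PSBX ranked better than PSBY in every library, with median ranks of 139.5 and 198.

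The assembly genes were the weakest. PSB27 (chromosome 1, 898480 to 899794, plus strand) had 12.5-fold and 9.33-fold for GLK1, against 11.0-fold and 9.83-fold for GLK2 (10.9 ± 2.22 for GLK1 and 10.4 ± 0.831 for GLK2), with ranks of 371 and 447 in the GLK1 lists, against 287 and 322 in the GLK2 lists. PSB28 (chromosome 4, 14149849 to 14151163, plus strand) had 3.35-fold and 2.67-fold for GLK1, against 2.57-fold in both GLK2 libraries (3.01 ± 0.486 for GLK1 and 2.57 ± 0.00163 for GLK2). At PSB28 the strongest summits of the replicates lay 157 bp apart for GLK1 and 248 bp apart for GLK2. The SDs there are thus not the spread of values at a single site. The TFs overlap at PSB27, and at PSB28 both GLK1 values were above both GLK2 values, though at differing positions. The PSB28 values are 0.966 to 1.101 times the median of their own lists, that is the level of an average summit. In each library PSBW came first, the PsbTn genes next, PSBX and PSBY after them, then PSB27 and then PSB28, and by fold change only the order within the PsbTn pair and between PSBX and PSBY changed from library to library.

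**Figure D1:**
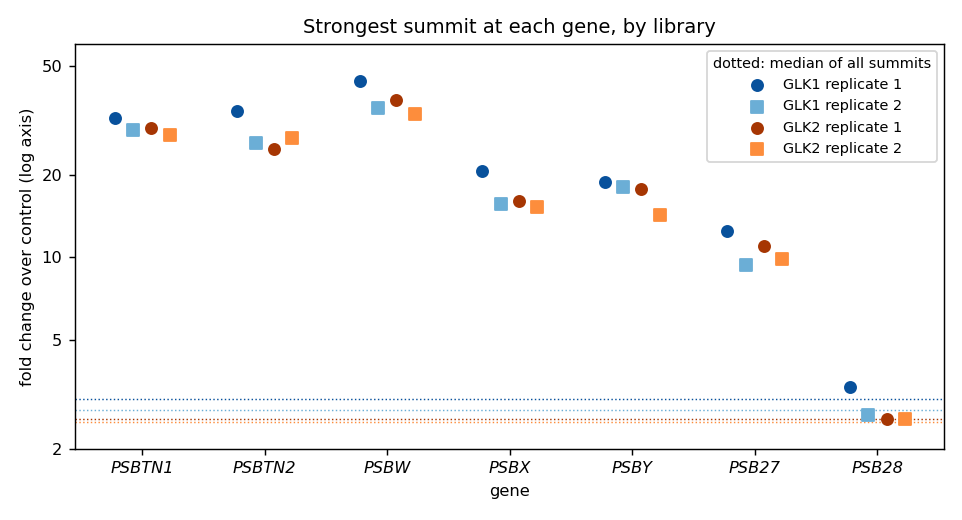
Fold change over the control of the strongest summit (vertical log axis) at each of the 7 genes, with 1 point for each library and dotted lines at the median of all summits of each list. PSBW lies between 33.5 and 44.1, PSB27 between 9.33 and 12.5, and PSB28 between 2.57 and 3.35, on the medians of the lists.

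Reproducibility between the libraries of a TF was scored by the irreproducible discovery rate (IDR), which sets the ranks of overlapping windows of both replicates against each other. At an IDR of 0.01, GLK1 kept 1689 of 9628 windows and GLK2 kept 2026 of 15171. The summits of 6 genes passed for both TFs, with an IDR of 9.95e-05 or less, whereas 3.38% of all genes had a summit that passed for both (4.74% for GLK1 and 5.59% for GLK2). PSB28 passed for neither TF, with an IDR of 0.329 for GLK1 and 0.191 for GLK2. Among the 6301 genes with a summit in all 4 libraries, ordered by mean log2 fold change after each library was centred on its median, PSBW ranked 61, PSBTN1 84, PSBTN2 88, PSBY 167, PSBX 173, PSB27 307 and PSB28 4881.

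At 6 of the genes the summits of the 4 libraries fell on nearly the same bases. The strongest summits spanned 7 bp at PSBTN1, 14 bp at PSBTN2, 17 bp at PSBW, 24 bp at PSBX, 26 bp at PSBY and 39 bp at PSB27, but 248 bp at PSB28. The median span over the 6301 genes was 95 bp, and 33.3% of them had a span of 60 bp or less. Among the 272 genes with at least 9-fold in all libraries the median was 21 bp and 92.3% had a span of 60 bp or less, so the tight placement at the 6 genes is shared with other strongly bound genes. The mean positions for GLK1 and GLK2 lay 1 bp apart at PSBY, 2 bp at PSBX, 5.5 bp at PSBTN1, 9 bp at PSBW, 11 bp at PSBTN2 and 19.5 bp at PSB27. At PSB28 the strongest summit was 104 bp upstream and 53 bp inside the gene in the GLK1 libraries, against 100 bp inside and 148 bp upstream in the GLK2 libraries, so even replicates of a TF placed it on different sides of the start site.

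Most of these summits were not in the upstream promoter. Of the 28 strongest summits, 22 lay in the 5′ UTR and 6 upstream, namely 4 of PSBTN2 and 2 of PSB28. These places refer to the outermost annotated start site of each gene. Measured from the start of a shorter annotated transcript of PSBTN1, the PSBTN1 summits lay 15 to 22 bp upstream. The median position was inside the gene at 5 of the 7 genes, against 24.0% of the 6301 genes and 33.5% of the 272 strongly bound genes. It was 21 bp inside PSBTN1, 54 bp inside PSBX, 57.5 bp inside PSBW, 121 bp inside PSBY and 289 bp inside PSB27, against a median of 235.5 bp upstream over the 6301 genes. In the comparison lists described further on, many genes with a summit in all libraries also had it inside the gene. These were 4 of 6 extrinsic PSII, 6 of 8 assembly and repair, 7 of 12 photosystem I and 5 of 13 LHCB genes. Measured to the most upstream annotated coding base, the median position was within 250 bp before it at all 7 genes, against 21.3% of the 6301 genes and 37.5% of the 272, a limit that was set after the positions were seen. Both background sets include genes that only share the summit of a neighbour, since a summit counted for every gene whose window held it. AT1G03590 thus shares the strongest summits of PSB27, and AT1G51402 those of PSBTN2. The window of RBL (AT3G21060) likewise holds those of PSBTN1. Such neighbours were not removed from the background shares. The summits were 103 to 117 bp before the coding start at PSBTN2, 115 to 154 bp at PSB27, 116 to 142 bp at PSBY, 163 to 187 bp at PSBX and 190 to 207 bp at PSBW. They were 9 to 16 bp before it at PSBTN1 (129 to 136 bp for the shorter coding sequence) and 59 to 307 bp at PSB28, where single summits thus lay beyond 250 bp. With summits counted only in the 1.5 kb upstream of the start site, 3 of the 7 genes (PSBTN2, PSB27 and PSB28) had one in all 4 libraries, and PSB27 then had a median rank of 9884.

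**Figure D2:**
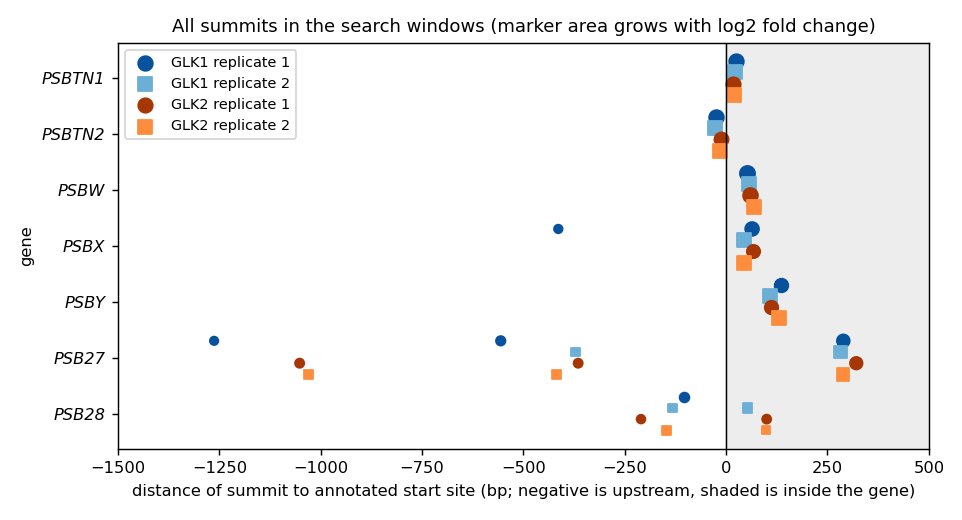
Position of every summit in the search windows of the 7 genes (horizontal axis, bp from the start site, negative upstream), with a row for each gene, colours and symbols for the 4 libraries and marker area rising with log2 fold change. The strongest summits of PSBTN1, PSBTN2, PSBW, PSBX and PSBY sit within 135 bp of the start site, those of PSB27 at 282 to 321 bp inside the gene, and those of PSB28 are scattered over 248 bp.

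Few other summits were in the windows. There were 39 in all, of which 8 were further summits of the 6 strongly bound genes, with 2.08-fold to 3.01-fold and ranks of 8002 to 14685. PSB27 held 7 of these, at 1263 and 556 bp upstream in GLK1 replicate 1, at 372 bp in GLK1 replicate 2, at 1052 and 365 bp in GLK2 replicate 1 and at 1031 and 418 bp in GLK2 replicate 2. The divergent gene AT1G03590 starts 762 bp upstream of PSB27, so those at 1031 bp or more lie past its start site, and those at 418 and 556 bp are nearer to its start site than to that of PSB27. PSBX held the remaining one, 414 bp upstream in GLK1 replicate 1 with 2.17-fold, within the body of VPS2.1 (AT2G06530). No other gene started nearer to any of the 28 strongest summits than the gene it was assigned to. The nearest neighbour of PSBTN1, RBL (AT3G21060), starts 165 bp upstream on the other strand, 183 to 190 bp from the summits, and the unnamed gene AT1G51402 overlaps PSBTN2 on the opposite strand.

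The pair of PsbTn genes allowed a comparison of related promoters. The coding sequences, with the shorter annotated form of PSBTN1 (312 bases, against 321 in PSBTN2), were identical at 242 of 325 aligned positions (74.5%). Around the start sites the best local alignment had 140 positions, of which 100 were identical (71.4%) and 14 were gaps. It set bases 43 upstream to 88 inside of PSBTN1 against bases 98 upstream to 35 inside of PSBTN2, so the annotated start sites differ by about 55 bp in the shared frame. In the 30-base lines above the word GGATAAGG follows after 14 bases in each line, a spacing set by where the lines were cut. The word was not among those planned for the search and was picked from these related sequences. It lies under or beside the summits of both genes. The summits lay 18 to 25 bp inside PSBTN1 and 13 to 27 bp upstream of PSBTN2. PSBTN1 has a shorter transcript in the annotation that starts 40 bp further in, and from that start its summits lay 15 to 22 bp upstream. GGATAAGG was in 0.822% and 0.818% of the 150 bp summit windows of GLK1 and in 0.865% and 0.957% of those of GLK2, and in 3.2% and 3% of the 500 strongest windows of GLK1 and 4% in each GLK2 library.

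Just upstream, both genes also carry a G-box core (CACGTG), the word bound by bZIP and bHLH factors of the light response. It is shown in capitals in the bases before each start site, together with GGATAAGG for PSBTN2, whose summit is upstream.
PSBTN1 (chr3:7377227-7377286): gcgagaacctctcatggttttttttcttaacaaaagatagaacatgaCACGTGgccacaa
PSBTN2 (chr1:19052583-19052662): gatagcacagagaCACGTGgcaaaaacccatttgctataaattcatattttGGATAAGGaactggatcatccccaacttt
The centre of the G-box core was 28.5 to 35.5 bp from the summits at PSBTN1 and 37.5 to 51.5 bp at PSBTN2, on the upstream side of GGATAAGG in both.

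Among the genes of the 5 photosynthesis lists described further on, the nearest to each PsbTn gene in its values over the 4 libraries was the other PsbTn gene. The measure was the Euclidean distance between centred log2 fold changes, which was 0.32 for the pair. Next came PSAH2, a photosystem I subunit gene (0.44), and LHCB5, a minor antenna gene (0.46), for PSBTN1, and LHCB1.1, a major antenna gene (0.42), and PSAH2 (0.46) for PSBTN2. PSAH2 had 27.2-fold and 22.9-fold for GLK1, against 29.2-fold and 25.7-fold for GLK2. Distances between other pairs of listed genes were not measured, so the likeness is not shown to be particular to the PsbTn pair. LHCB1.4 and LHCB1.5, for example, had the same values, since they were assigned the same summits.

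Motif words were searched on both strands in the 150 bp summit windows. RGATTYY, with R for A or G and Y for C or T, is the known core word of GLK binding sites. It was in the windows of 3 of the 7 genes in all libraries (PSBW, PSBY and PSB27), whereas 26.1% and 28.3% of all GLK1 windows and 27.4% and 28.0% of all GLK2 windows held it. Among the 500 strongest windows of each library the share was 54% and 57% for GLK1 and 57.6% and 58% for GLK2. The word GATTCC, which with an A or G before it is a form of RGATTYY, was in none of the 7 windows, against 7.16% and 7.03% of GLK1 and 7.43% and 7.36% of GLK2 windows. PSBTN1, PSBTN2 and PSBX, with fold changes of 15.3 to 34.3, thus had no RGATTYY within 75 bp of any strongest summit. In windows of 300 bp PSBTN2 and PSBX also held it, at 84 to 98 bp and 117 to 141 bp from the summits, and PSBTN1 did not.

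The I-box core GATAAG, a word of light-regulated plant promoters, was in the windows of 4 genes in all libraries (PSBTN1, PSBTN2, PSBY and PSB27), against 10.9% and 11.2% of GLK1 and 11.6% and 11.8% of GLK2 windows, and 21.8% and 22% of the 500 strongest GLK1 and 31% and 29.8% of the 500 strongest GLK2 windows. Its centre was 2.5 to 9.5 bp from the summits at PSBTN1, 1.5 to 12.5 bp at PSBTN2, 6.5 to 17.5 bp at PSBY and, for the nearer of the 2 adjacent copies in the line above, 3.5 to 34.5 bp at PSB27. The RGATTYY match beside these copies at PSB27 was 13 to 26 bp from the summits, closer than the I-box core in all libraries but GLK2 replicate 1. In the lines above it follows a G at the PsbTn genes and PSBY and an A at both copies of PSB27. GGATA, which shares GATA with the I-box core and was added after the sequences were seen, was in the windows of 5 genes in all libraries (all but PSB27 and PSB28), against 24.0% and 24.8% of GLK1 and 24.2% and 24.4% of GLK2 windows, and 39.6% and 39% of the 500 strongest GLK1 and 44.4% and 47.8% of the 500 strongest GLK2 windows. At PSBW and PSBX, which have no GATAAG there, its centre was 2 to 15 bp and 2 to 21 bp from the summits.

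The G-box core was in the windows of 4 genes in all libraries (PSBTN1, PSBTN2, PSBW and PSB27), against 12.1% and 11.6% of GLK1 and 9.49% and 9.47% of GLK2 windows, and 24% and 24.8% of the 500 strongest GLK1 and 19.8% and 20.6% of the 500 strongest GLK2 windows. PSB28 had it in GLK1 replicate 1 and GLK2 replicate 2 only. At PSBW it lay 35 to 40 bp inside the gene, just before the line shown above. CCAATC, a word found often in promoters of genes that respond to GLK, was in the windows of PSBW and PSBX, against 9.89% and 9.75% of GLK1 and 9.36% and 9.07% of GLK2 windows, and 22% and 22.4% of the 500 strongest GLK1 and 20.4% and 20% of the 500 strongest GLK2 windows. At PSBW it reads GATTGG in the line above, with its centre 1.5 to 15.5 bp from the summits. These matches are descriptions of the sequence, the 7 windows are too few to compare shares, and a word that is not found says only that its letters are not in the window.

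**Figure D3:**
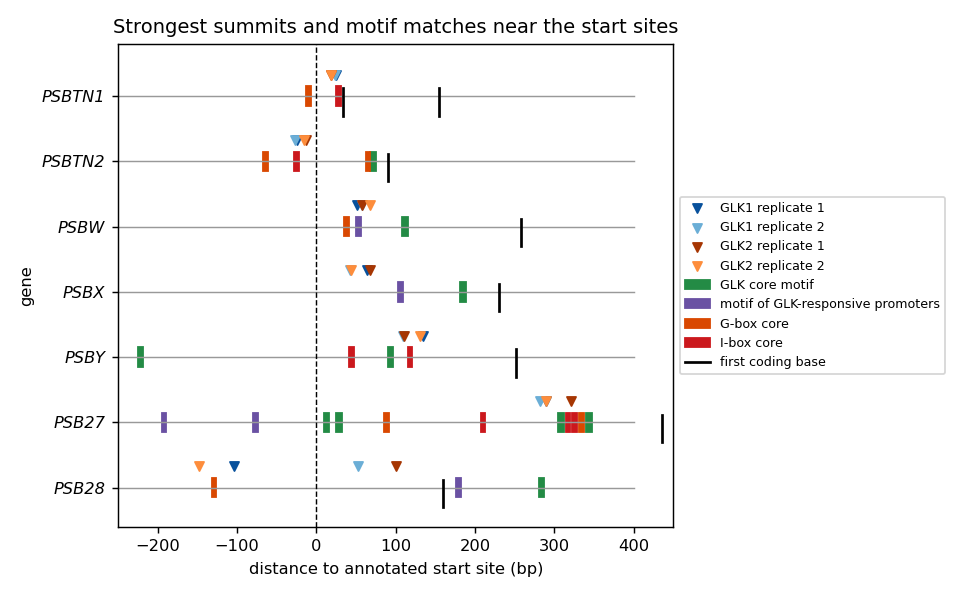
Matches to the G-box core, the I-box core, the GLK core motif and the motif of GLK-responsive promoters on either strand (coloured boxes, to scale) and the strongest summits of the 4 libraries (triangles) at the 7 genes, against distance to the start site in bp, with black bars at the first coding base of each annotated transcript. The I-box core lies within 12.5 bp of all summits at PSBTN1 and PSBTN2, and no match to the GLK core motif lies within 75 bp of the summits of PSBTN1, PSBTN2 or PSBX.

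GLK1 and GLK2 were compared over the 6301 genes with a summit in all 4 libraries by limma on log2 fold change, each library centred on its median, with Benjamini-Hochberg adjustment. At none of the 7 genes did the TFs differ at a limma adjusted p under 0.05. Over all genes, 9.03% were higher for GLK1 and 4.33% higher for GLK2, so none of 7 is near the share over all genes. None of the 7 passed at an unadjusted p under 0.05 either, against 26.9% of all genes. The difference of GLK1 minus GLK2 was 0.11 on the log2 scale at PSBTN1 (95% confidence interval −0.27 to 0.48), 0.22 at PSBTN2 (−0.16 to 0.60), 0.17 at PSBW (−0.21 to 0.54), 0.22 at PSBX (−0.16 to 0.59), 0.23 at PSBY (−0.16 to 0.61), 0.07 at PSB27 (−0.31 to 0.45) and 0.24 at PSB28 (−0.14 to 0.61). At PSB28 the difference sets summits at differing positions against each other. The limma adjusted p was between 0.418 and 0.854. The intervals leave room for up to 0.61 in favour of GLK1 and 0.31 in favour of GLK2, so equal binding is not shown. The sign of these differences depended on the scaling, since quantile normalization put 6 of them, all but PSB28, below 0. The overlaps between the TFs given further up are of uncentred values and depended on the scaling too. After centring, both GLK1 values were above both GLK2 values at every gene but PSB27. For a single gene an exact two-sided permutation test of 2 against 2 libraries cannot go below p = 0.33.

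**Figure D4:**
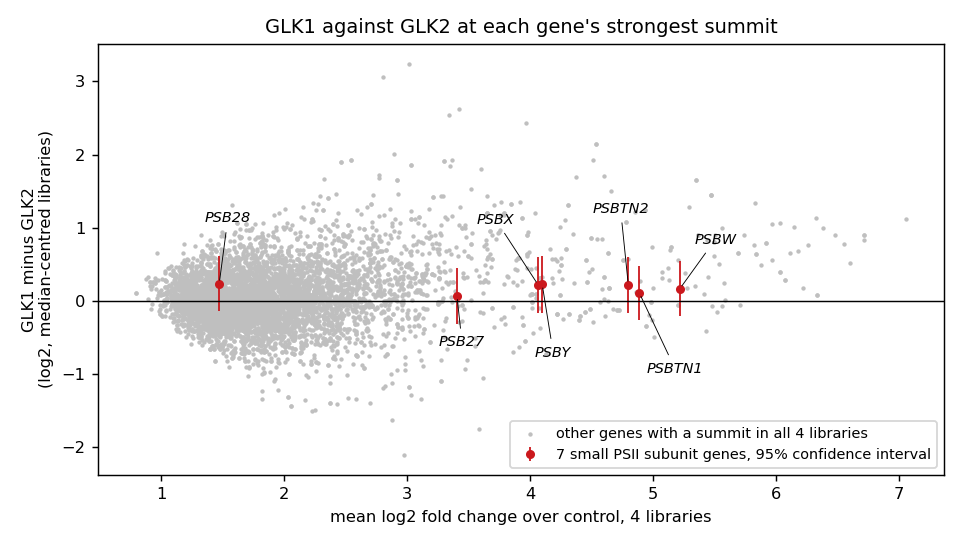
Difference of GLK1 minus GLK2 in log2 fold change (vertical axis, libraries centred on their medians) against mean log2 fold change over the control (horizontal axis) for the 6301 genes with a summit in all 4 libraries, with the 7 genes in red and their 95% confidence intervals from limma. All 7 intervals include 0, and their centres lie between 0.07 and 0.24.

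Against the other proteins of the photosystems, the 7 genes had a wide range and a lower middle. Their median of mean log2 fold change over the library medians was 2.29 (−0.33 to 3.42), where the median over all genes in the fit was −0.02. Oxygen-evolving and other extrinsic PSII subunits had 3.48, with 6 of 7 genes bound in all libraries. The remaining gene of the list, PSBS, had no summit in any library. It encodes the sensor of non-photochemical quenching, which is not an extrinsic subunit. The list ran from PSBO2 (1.33) to PSBP1 (4.37), which encode proteins that stabilise the manganese cluster. Photosystem I core subunits had 3.70 (PSAD1 2.60 to PSAL 4.91) and the LHCB antenna genes 3.89 (LHCB1.2 2.80 to LHCB1.3 5.25), and all 12 and all 13 genes were bound and passed the IDR for both TFs. LHCB1.4 and LHCB1.5 were assigned the same summits.

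PSII assembly and repair factors stood at the other end. Of 20 genes, 8 had a summit in all 4 libraries, 5 had none in any (LPA1, PPL1, FTSH1, FTSH8 and DEG1), and none passed the IDR for both TFs. The median of the 8 was 0.34, from HCF136 (−0.75), needed for early PSII assembly, to LQY1 (0.78), a thiol-disulfide protein of PSII repair. LPA19, a relative of PSB27 in the same family, had no GLK1 summit, against 1.87-fold and 2.23-fold in the GLK2 libraries. PSB28 (−0.33) lay inside the range of these factors, whereas PSB27 (1.60) lay above all 8 of them and below 5 of the other members. No test between lists was made.

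**Figure D5:**
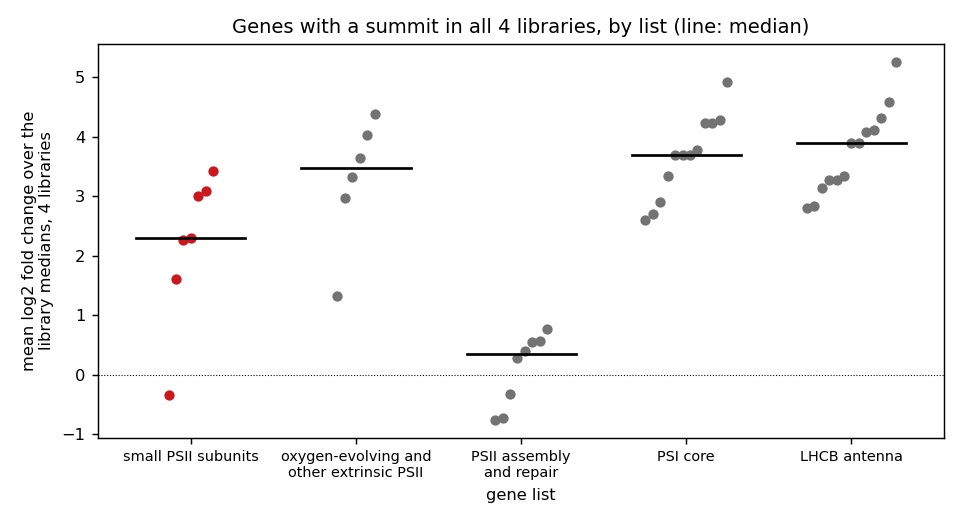
Mean log2 fold change over the library medians (vertical axis) for the genes with a summit in all 4 libraries in 5 lists, with 1 point for each gene, the 7 small PSII subunit genes in red and lines at the list medians. The median of the 7 genes, which include the assembly genes PSB27 and PSB28, is 2.29. The other medians are 3.48 for oxygen-evolving and other extrinsic subunits, 0.34 for assembly and repair factors, 3.70 for photosystem I core subunits and 3.89 for LHCB antenna genes.

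The lists also differed in how many genes were called between the TFs. No small subunit gene was called, against 4 of 6 oxygen-evolving and extrinsic, 6 of 12 photosystem I and 8 of 13 LHCB genes higher for GLK1, and TLP18.3, a repair factor, was the only listed gene higher for GLK2 (−0.88, limma adjusted p = 0.00394). PSBQ2, an oxygen-evolving subunit gene, had 100.4-fold and 80.8-fold for GLK1, against 35.8-fold and 35.9-fold for GLK2 (difference 1.34, limma adjusted p = 0.000129). LHCB1.3 had 210.2-fold and 181.4-fold for GLK1, against 93.6-fold and 88.6-fold for GLK2 (difference 1.12, limma adjusted p = 0.000559). These counts rest on the scaling and on the value that stands for a gene. Under quantile normalization 2 oxygen-evolving, 0 photosystem I and 1 LHCB gene were higher for GLK1, and 0, 1 and 1 of them and 2 assembly and repair genes higher for GLK2. In the same order of lists, the genes higher for GLK1 were 1, 0 and 1 with −log10 q, 1, 0 and 2 with the summit nearest to the start site, and 0 in each with summed fold changes. Without GLK2 replicate 1 or without GLK2 replicate 2, 4 LHCB genes were higher for GLK1. Whether the small subunit genes differ from the other lists in this respect was not tested.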

How the data were processed

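The authors aligned 50-base parts of the ChIP-seq reads to TAIR10 with Bowtie2 2.3.2, removed reads of low mapping quality and duplicates with SAMtools and called summits in each library with MACS2 2.2.1 against a control that is not named. Each deposited line is a 150 bp window around a summit. The deposited fold change is a linear ratio of ChIP over control at the summit, and the deposited −log10 values are those of the MACS2 q-value, used here for an alternative ranking. No reads were used, so the depth is unknown and intervals cover only the spread between libraries.

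Summits were assigned to the 27444 protein-coding genes of the RefSeq annotation of TAIR10.1, whose chromosome lengths contain every deposited position. Positions count from 0 at the start base. A gene's value is that of its strongest summit in the window, and rank 1 is the highest fold change of a list. A summit in the windows of several genes was counted for each of them. The IDR mixture was refitted in Python 3.11.15 (numpy 2.4.6, scipy 1.17.1, pandas 2.3.3) on summed fold changes of merged windows that overlap by at least 1 bp, with mu started at 0.1, sigma at 1, rho at 0.2 and the reproducible share at 0.5. GLK1 and GLK2 were compared with limma 3.58.1 in R 4.3.3. Both steps were also run on simulated data, with the same SD for every gene and an IDR signal further from the noise than in the fits. That run checks the code and cannot vouch for the calls made here. The PsbTn sequences were aligned with Biopython 1.88, and figures drawn with matplotlib 3.10.9.

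Groups and replicate numbers come from the sample labels. The labels do not say what separates the libraries of a TF, and the study's reporting summary gives a separate plant for each replicate. Neither says whether they came from independent transgenic lines. The 7 genes and the 4 comparison lists (extrinsic PSII, assembly and repair, photosystem I, LHCB) were chosen with earlier results of these data known. The genes named by rule are all 7 members, the strongest and weakest gene of each list and any with no summit in any library, the 3 listed genes most like each PsbTn gene, and other genes whose start site is nearer to a strongest summit. PSBQ2, TLP18.3, LPA19 and the neighbours of PSBTN1, PSBTN2, PSBX and PSB27 are named in addition, chosen after their values were seen. The alternatives were other IDR settings, windows, gene values, scalings, motif windows, a fold filter, a replicate block and each library left out. Other species were not used here.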

Additional observations from a re-analysis of the deposited data

How the results depend on the processing

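All 7 genes had a summit in every library used under 6 of 10 other settings (each library left out, and windows from 1 or 2.5 kb upstream), 6 did within 250 bp of the start site or at a fold change and −log10 q of at least 5, 5 did at a fold change of at least 10, and 3 did with only the 1.5 kb upstream. Of all 27444 genes, 6368 to 7301 had such summits with a library left out, 4712 with only the 1.5 kb upstream and 235 at a fold change of at least 10. An IDR of 0.05, the largest fold change and −log10 q each kept 6 reproducible genes, and overlap of windows without IDR gave 7. Over all genes these 4 settings passed 6.40%, 7.53%, 8.32% and 21.6%, against 3.38% in the main run, so they were looser. No alternative called a difference between GLK1 and GLK2 at any of the 7 genes (79 values). The sign changed in 10 of them, none called: under quantile normalization the difference was −0.34 at PSBTN1, −0.19 at PSBTN2, −0.37 at PSBW, −0.18 at PSBX, −0.17 at PSBY and −0.31 at PSB27, with only genes of at least 5-fold in a library −0.0058 at PSBTN1 and −0.0427 at PSB27, and with summed fold changes −0.0388 at PSB28. With a library left out it ran from −0.0226 to 0.187 at PSB27, below 0 without GLK1 replicate 1. Over all genes, 569 were higher for GLK1 and 273 for GLK2 (67.6% of the calls for GLK1), against 382 and 360 (51.5%) under quantile normalization, 463 and 349 (57.0%) with the 5-fold filter, 256 and 87 with −log10 q, 358 and 146 with upstream summits, and 98 and 21 (82.4%) with the summit nearest to the start site, added after the data were seen. Summed fold changes gave 0 and 0 calls by limma, with 1247 genes at an unadjusted p under 0.05. With a library left out the counts ran from 343 to 458 for GLK1 and from 123 to 197 for GLK2, and the lone library was assumed to vary like the other group. The cause was not tested in any of these. The replicate block gave 713 and 371. Same-numbered libraries shared little (Pearson r = 0.04 over genes), so the number was not taken as a pairing. With ranks by −log10 q the median rank was 59 for PSBW, 139.5 for PSBX, 198 for PSBY and 231.5 for PSB27, against 55, 170.5, 171 and 346.5 by fold change. RGATTYY was in 5 of the 7 windows at 300 bp and in 1 at 75 bp (GLK1 replicate 1), against 3 at 150 bp. With 2 libraries per TF and no read depths, weak summits such as those of PSB28 cannot be placed more precisely.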
